A study of Danio rerio with 3 samples.

Results

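Fish eating feed with Fe'i banana were set against fish eating feed with Cavendish banana, and the question was which intestinal transcripts differ between the bananas when the share of fruit in the feed is the same. Genes entered the comparison when the quantification status was good and the level reached 1 FPKM (fragments per kilobase of transcript, scaled to the mapped total) in the Fe'i or the Cavendish library. Of 32519 gene identifiers in the files 13696 met this rule, and 14061 reached 1 FPKM in at least 1 of the 3 libraries of the study. Fe'i bananas are cooking bananas of the Pacific with orange pulp rich in carotenoids, the pigments from which animals make vitamin A. Cavendish is the pale dessert banana of world trade.

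Adult zebrafish (Danio rerio), healthy and 6 to 9 months old at the outset, made up all groups. The Fe'i group (FE) ate granules that were 50% Fe'i pulp and otherwise Tetramin, a commercial flake feed. The Cavendish group (CV) ate granules with 50% Cavendish pulp in the same feed, and the control group (CO) ate Tetramin alone. Each group received 4% of body weight a day for 8 weeks, was left without food for 24 hours, and gave its intestines on day 56. Poly(A) RNA was read in pairs of 150 bases. There was 1 library per diet, so no difference has a replicate check, and diet, fish and dissection cannot be told apart. The labels do not say how many fish gave each library, of which sex, or which stretch of gut was taken.

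The fish intestine is a tube with no stomach in front of it in this species. Its enterocytes absorb lipid, sugar and peptides, and those of a posterior zone take up whole protein and digest it in lysosomes. Cholesterol enters from food and bile, is also made in cells under the control of the factor srebf2, and leaves the body as bile acids, whose synthesis in the liver is held back by the intestinal hormone fgf19.

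The libraries differed in depth and in markers of other organs. Relative to the Cavendish library at 1, the depth read from the deposited intervals was 0.644 for the Fe'i and 0.79 for the control library, and a compared gene rested on a median of 120.1 effective fragments in the Fe'i, 187 in the Cavendish and 155 in the control library. The 4 enterocyte markers fabp2, vil1, slc15a1b and anpepb were present in every library, with summed levels of 4221 scaled FPKM in the Fe'i, 3258 in the Cavendish and 6153 in the control library. The 7 liver markers summed to 16096, 7342 and 3338 scaled FPKM in that order of libraries, and the 7 exocrine pancreas markers to 18574, 58381 and 19723. Summed over markers, islet cells gave 836, 2759 and 298, and smooth muscle gave 458, 1167 and 353. In bulk RNA, more cells of a type and more RNA per cell cannot be told apart.

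Levels below are FPKM divided by a scaling factor per library, the value after ± is the half-width of the deposited 95% interval, and ratios are Fe'i over Cavendish on the scale of log2(scaled FPKM + 1), where changes of low genes are understated. A gene was called when the ratio was at least 2-fold and the intervals did not overlap. This interval covers counting and read assignment within a library, not the spread between fish. By this rule 594 genes stood higher in the Fe'i library and 631 stood lower, which is 8.94% of the genes compared, 4.34% higher and 4.61% lower. The median ratio of all genes was -0.01 and 89.7% lay within 2-fold. With FPKM brought to a common sum (TPM) in place of the scaling, the median of all genes moved to 0.09. Calls were more frequent among abundant genes, at 18.9% of those at 100 FPKM or more against 7.03% of those under 5. Counts of calls in each list and family below are to be read against these shares.

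**Figure D1:**
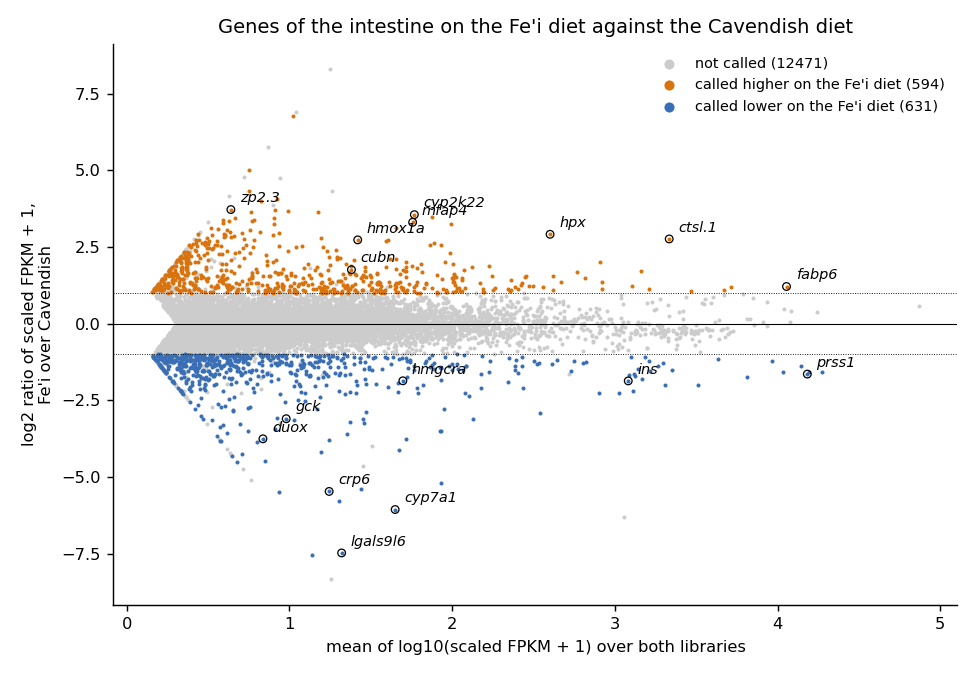
Each point is a gene, placed by its mean level in the Fe'i and Cavendish libraries (horizontal, log10) and its log2 ratio of Fe'i over Cavendish (vertical), with dotted lines at 2-fold. The 594 orange genes were called higher and the 631 blue genes lower, among them hpx and ctsl.1 above and cyp7a1 and lgals9l6 below.

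Of all named genes past the call rule, lgals9l6 (ENSDARG00000093059, GRCz11 chromosome 15, 30987414 to 31000275) had the lowest ratio. It encodes a galectin, which binds sugars on cell surfaces, and stood at 0.568 ± 0.546 in the Fe'i and 278 ± 14.2 in the Cavendish library and was listed at 0 in the control library. Next came cyp7a1, at 4.46 ± 0.839 against 364 ± 6.14, and the neighbouring C-reactive protein genes crp7, at 0.287 ± 0.538 against 56.7 ± 5.2, and crp6, at 1.63 ± 1.05 against 116 ± 7.03. C-reactive proteins are acute phase proteins. The haptoglobin gene hp of chromosome 7, which encodes a hemoglobin-binding plasma protein, had 0.497 ± 0.603 against 32.2 ± 2.32. The dual oxidases duox2 and duox, the chemokine cxcl11.8, the tight junction gene cldn18, the cytochrome P450 cyp2k6, the galectin lgals9l4, and cst14b.2, traj28, plek2 and rpz2 completed the 15 lowest named genes. Of these cldn18 was listed at 0 in the Fe'i library, and the interval of traj28, a T cell receptor segment, was 0.000107 ± 2.19 there against 11.8 ± 2.85 in the Cavendish library.

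At the other end stood ccl39a.10, a chemokine, at 108 ± 69.9 in the Fe'i library and listed at 0 in the Cavendish and control libraries. The cytochrome P450 cyp2k22 had 200 ± 10.22 against 16.1 ± 1.58 in the Cavendish library. The lysosomal glycosidase gene ctbs had 25.8 ± 2.34 against 1.44 ± 0.441, and mfap4, of the macrophage list described below, 179 ± 11.4 against 17.2 ± 2.4. The fatty acid binding protein gene fabp7a had 302 ± 18.4 against 30.6 ± 3.75, while its paralogue fabp7b, chosen after its value was seen, was called lower at 57.9 ± 6.24 against 153 ± 8.1. Among the rest of the 15 highest were the egg envelope genes zp2.3, zp2.6, zp3.2, zp3a.1 and zp3a.2 and the histone gene h2af1al. The others were the chemokines ccl39.2 and ccl38.1, the plasma protein hpx and the chemokine receptor cxcr3.1 (ENSDARG00000078177). A second gene named cxcr3.1 was not called, at 1.3 ± 0.4 against 1.44 ± 0.339. ccl38.1 had a wide interval, at 6.6 ± 5.96 in the Fe'i library, and was also listed at 0 in the Cavendish library. Galectins, C-reactive proteins, chemokines, egg envelope genes, receptor segments and pancreatic proteases belong to families of near-identical copies, so the division of reads among members is uncertain.

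**Figure D2:**
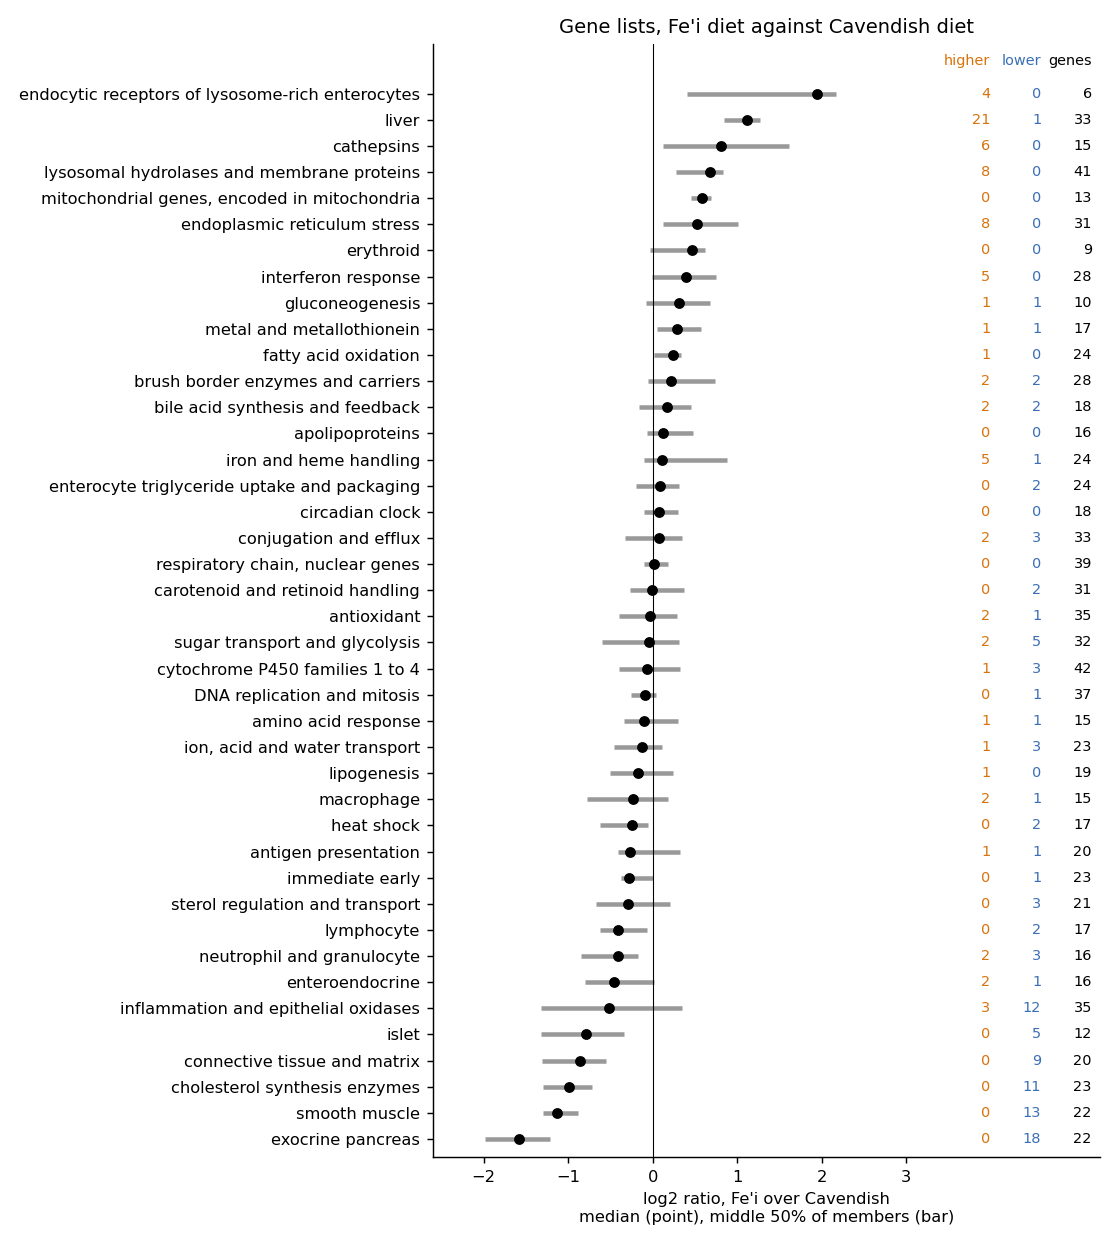
For each gene list with at least 6 genes compared, the egg and skeletal muscle lists left out, the point is the median log2 ratio of Fe'i over Cavendish and the bar spans the middle 50% of members, over all compared members, with counts called higher, called lower and compared at the right. Exocrine pancreas (median -1.58) and cholesterol synthesis (-0.99) lay low, and endocytic receptors (1.94) and liver (1.12) high.

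Cholesterol synthesis genes were lower in the Fe'i library along most of the pathway. Of 23 enzymes compared, 11 were called lower and 0 higher, against 4.61% of all genes called lower, and 22 of the 23 ratios were negative, with a median of -0.99. At the committed step hmgcra (ENSDARG00000052734, chromosome 5, 50972485 to 50992775) had 25.1 ± 1.72 in the Fe'i, 93.9 ± 4.34 in the Cavendish and 19.3 ± 1.3 in the control library, a ratio of -1.86 with a counting SE of 0.06. Its paralogue hmgcrb had 7.41 ± 0.805 against 7.84 ± 0.666 in the Cavendish library. So of the pair only hmgcra was called.

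Most steps before and after hmgcra were also lower in the Fe'i than in the Cavendish library, while the place of the control library varied. acat2 and hmgcs1 join acetyl units ahead of hmgcra. They had 30.7 ± 2.62 against 69.3 ± 3.95 and 128 ± 6.33 against 252 ± 10.1 in the Fe'i and Cavendish libraries, with 40.1 and 92 in the control library. hmgcs1 just missed the 2-fold threshold at a ratio of -0.98. The isoprenoid steps were uneven, with pmvk at 1.74 ± 0.449 against 4.98 ± 0.63 and idi1 at 35.2 ± 1.79 against 81.7 ± 2.19, but mvk at 10.8 ± 1.42 against 11.7 ± 1.16. The decarboxylase mvda was the one member above 0, at 62.4 ± 4.62 in the Fe'i against 40.3 ± 2.83 in the Cavendish library. fdps was at 63.6 ± 4.15 against 115 ± 5.71, and ggps1, which leads away from sterols, at 3.27 ± 0.505 against 3.61 ± 0.434.

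From squalene on, the members named here were lower in the Fe'i library, though not all passed 2-fold. fdft1, which makes squalene, had 6.79 ± 1.31 against 17.8 ± 1.74, sqlea 32.5 ± 2.22 against 56.1 ± 2.31 and lss, the cyclase that yields lanosterol, 22.2 ± 1.87 against 48.2 ± 2.77. cyp51, which demethylates lanosterol, had 67.5 ± 4.05 against 196 ± 8.99, and msmo1 165 ± 5.79 against 434 ± 7.65. Late steps followed, with sc5d at 25.6 ± 2.61 against 65.4 ± 3.34 and dhcr7 at 14.8 ± 1.56 against 38.4 ± 2.26. tm7sf2, nsdhl, hsd17b7, ebp and lbr had ratios from -0.99 to -0.63 and were not called. In the control library hmgcra, cyp51 and msmo1 stood at 19.3, 50.8 and 145, near the Fe'i values.

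**Figure D3:**
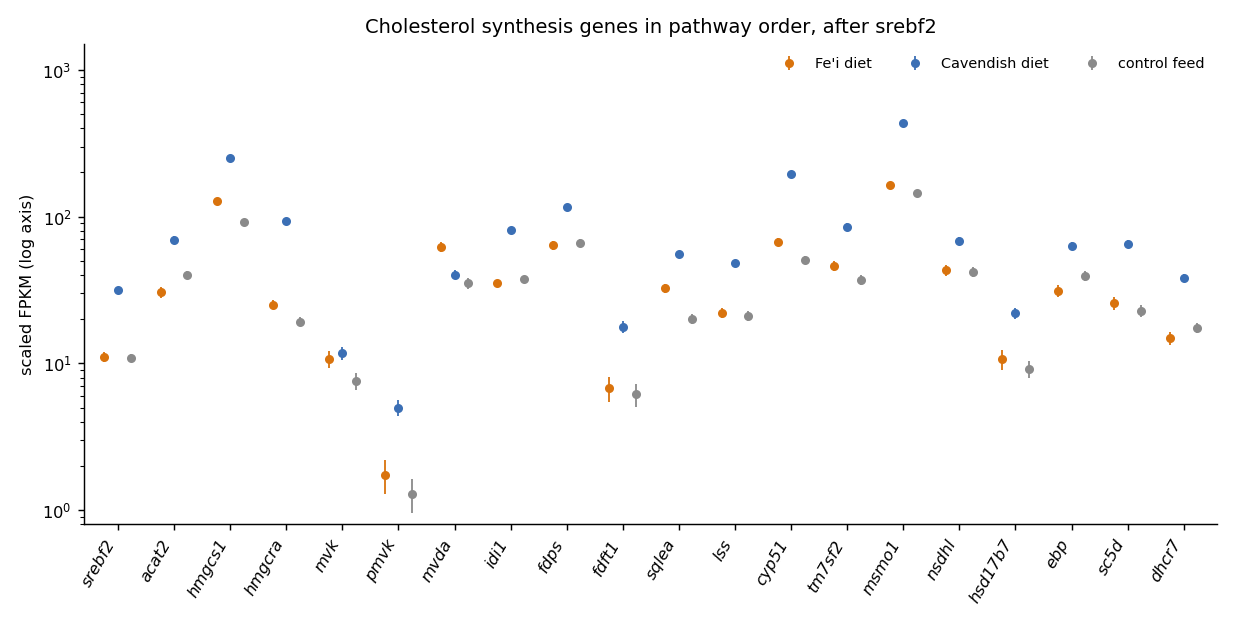
Scaled FPKM (log axis) of srebf2 and 19 cholesterol synthesis genes in pathway order, with deposited 95% intervals, for the Fe'i (orange), Cavendish (blue) and control (grey) libraries. The Cavendish library is highest for every gene shown except mvda, where the Fe'i library is highest at 62.4.

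Of 21 genes of sterol regulation and transport, 18 reached 1 FPKM in both libraries, and these held 2 calls, both lower, and a median of -0.09. The full list, with 3 lower calls and a median of -0.29, is a description, since its other genes entered through the Cavendish library alone. srebf2 itself had 11.1 ± 0.866 in the Fe'i, 31.5 ± 1.15 in the Cavendish and 10.9 ± 0.741 in the control library, a ratio of -1.42. NPC1L1, the carrier that takes cholesterol into enterocytes, had 6.43 ± 0.684 against 20.5 ± 0.969 in the Cavendish library. mylipb, which marks the LDL receptor for degradation, was the third lower call of the full list. It entered through the Cavendish library alone, at 0.424 ± 0.255 against 2.29 ± 0.48. insig1, which holds back the sterol pathway when sterol is plentiful, had 34.5 ± 2.29 against 55.4 ± 2.97 and was not called. npc2, another gene of the list, leaned the other way at 600 ± 28.6 against 382 ± 18.2 and was not called. Of the 21 ratios 8 were positive and 13 negative. The liver and pancreas marker sums given above also differed between these libraries, in opposite directions, and their part in the sterol genes was not tested.

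Among 18 bile acid genes there were 2 calls each way, against 4.34% called higher and 4.61% called lower of all genes. The list had 12 positive and 6 negative ratios and a median of 0.17. Both lower calls were synthesis enzymes and both higher calls were intestinal response genes, which describes the called genes and not the list. cyp7a1 (ENSDARG00000069018, chromosome 2, 22150134 to 22152797) catalyses the rate-limiting step from cholesterol to bile acids. It had 4.46 ± 0.839 in the Fe'i, 364 ± 6.14 in the Cavendish and 34.3 ± 2.01 in the control library, a 66.8-fold difference between the bananas (ratio -6.06, counting SE 0.11). cyp8b1, which sets the type of bile acid made, had 12.1 ± 1.4, 51.3 ± 2.28 and 18.6. Thus both were lowest on the Fe'i diet. Both are known as liver enzymes, and the liver markers went the other way, summing to 16096 in the Fe'i against 7342 in the Cavendish library; the part of liver RNA in these values was not tested.

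On the intestinal side, fabp6, which binds bile acids inside ileal cells, had 17303 ± 139 in the Fe'i, 7457 ± 74.2 in the Cavendish and 10271 ± 92.2 in the control library. fgf19, the hormone that bile acids induce in the gut, had 10.4 ± 2.02, 2.52 ± 0.81 and 1.38 ± 0.676. The nuclear receptor target nr0b2a had 83.2 ± 2.85 in the Fe'i against 48.2 ± 1.73 in the Cavendish library, a ratio of 0.78 that was not called. fgfr4, the receptor that fgf19 acts on, had 12.6 ± 1.02 against 7.85 ± 0.627. The uptake carrier slc10a2, chosen after its value was seen, differed little, at 190 ± 5.77 against 186 ± 4.6. fabp6 marks a posterior stretch of the gut, and which stretch each library holds is not known.

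In triglyceride uptake and packaging 2 of 24 genes were called, both lower, a share near the 8.94% of all genes, and the median was 0.09. The calls were scarb1, a receptor for lipoproteins and carotenoids, at 34.9 ± 3.08 in the Fe'i, 92.7 ± 4.22 in the Cavendish and 57.2 in the control library, and fabp1a, at 9.7 ± 2.92 against 21.3 ± 3.58 in the Cavendish library. None of 16 apolipoprotein genes was called, and the median was 0.13. apoba and apoa2 had the highest ratios, 0.92 and 0.83, apoa2 with 9358 ± 373 against 5271 ± 209, and apobb.2 and apoeb the lowest, apoeb with 295 ± 12.4 against 499.8 ± 18.7 in the Cavendish library. apoa2 is also made in liver, whose markers were higher in the Fe'i library.

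In lipogenesis 1 of 19 genes was called, against 8.94% called among all genes. fasn, fatty acid synthase, had 7.62 ± 1.12 in the Fe'i against 2.49 ± 0.665 in the Cavendish library, while scd, fads2 and elovl6, which desaturate and lengthen fatty acids, had ratios of -0.88, -0.87 and -0.94 and the list median was -0.17. In fatty acid oxidation 1 of 24 was called, against the same 8.94%. It was the carnitine transferase cpt1b, at 10.8 ± 1.15 against 2.98 ± 0.463. In that list 18 of the 24 ratios were positive, with a median of 0.24. angptl4, which inhibits lipoprotein lipase, leaned the other way at 11 ± 1.55 against 22.3 ± 1.81.

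In sugar transport and glycolysis, 32 genes held 5 lower and 2 higher calls, and their median of -0.05 ranged from -0.06 to 0.06 over the alternative settings. gck, glucokinase, had 2.26 ± 0.608 in the Fe'i, 27 ± 1.84 in the Cavendish and 1.23 ± 0.365 in the control library. pfkpa and hk1, which phosphorylate sugars in early glycolysis, had 3.57 ± 0.587 against 14.8 ± 1.28 and 1.87 ± 0.367 against 7.22 ± 0.579 in the Fe'i and Cavendish libraries. gapdhs and eno1a, of later glycolysis, had 58.3 ± 4.41 against 166 ± 8.48 and 51 ± 3.87 against 140 ± 6.89. ldhbb, a lactate dehydrogenase, went the other way at 216 ± 12.8 against 63.9 ± 5.21. tpi1a, called higher, entered through the Fe'i library alone and stayed under 3 FPKM in both libraries. gck is known from islets and liver, and the islet markers were lower (836 against 2759) and the liver markers higher in the Fe'i than in the Cavendish library; their part was not tested.

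In gluconeogenesis 2 of 10 genes were called, in opposite directions, against 8.94% called among all genes. The list had 7 positive and 3 negative ratios and a median of 0.32. pck1, the entry enzyme of the pathway, had 111 ± 6.17 in the Fe'i, 258 ± 11.3 in the Cavendish and 473 in the control library. g6pca.1, of the final step, had 11.6 ± 2.2 in the Fe'i against 4.6 ± 0.979 in the Cavendish library.

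Fe'i pulp is known for its carotenoids, but the labels give no carotenoid content of the feeds. For carotenoid and retinoid handling 31 genes were compared. The list held 2 lower calls and no higher one, against 8.94% called among all genes. Its median of -0.01 ranged from -0.01 to 0.27 over the alternatives. The calls were rdh12, a retinol dehydrogenase, at 16.1 ± 1.97 in the Fe'i, 66.2 ± 3.16 in the Cavendish and 22 in the control library, and the retinol-binding gene rbp5, at 10.3 ± 2.29, 34.8 ± 3.61 and 8.02. bco1, which splits beta-carotene into retinal, had 80.2 ± 5.03 against 63.2 ± 3.77 in the Cavendish library, and its relative bco1l 68.5 ± 4.56 against 119 ± 5.89. Neither passed 2-fold. rbp2a, the abundant cellular retinol-binding gene of enterocytes, had 6872 ± 68.4 against 6181 ± 52.2, and rbp2b 41.7 ± 3.74 against 28.1 ± 2.47. cyp26a1, which breaks down retinoic acid, was low on both bananas, at 2.65 ± 0.736 in the Fe'i and 1.2 ± 0.401 in the Cavendish library, with 74 ± 4.37 in the control library. scarb1, a carotenoid receptor described above, was lower in the Fe'i library, but it is counted in the triglyceride list and not in this one.

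Several genes of protein-absorbing enterocytes were higher in the Fe'i library. In the endocytic receptor list 4 of 6 genes were called, all higher, against 4.34% of all genes called higher. The median was 1.94, and it was 0.87 with no minimum level, where 2 further genes of the list enter. The receptor gene cubn (ENSDARG00000087013, chromosome 24, 32035759 to 32150276) had 43.3 ± 1.07 in the Fe'i, 12 ± 0.444 in the Cavendish and 11.5 ± 0.469 in the control library. Its membrane partner amn had 92.8 ± 4.28, 20.5 ± 1.62 and 25.4, the second receptor lrp2b 36.4 ± 1.84, 7.25 ± 0.496 and 15.7, and the adaptor dab2 214 ± 8.23, 42.6 ± 2.38 and 88.5. The Fe'i library was the highest of the 3 for all 4 genes. tmigd1, another gene of the list, had 130 ± 7.71 in the Fe'i against 134 ± 6.85 in the Cavendish library. The list had 4 positive and 2 negative ratios, that of tmigd1 among the negative ones.

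Proteases and glycosidases of the lysosome, where the captured protein ends, were higher too. The 15 cathepsin genes held 6 calls, all higher, against 4.34% of all genes called higher, and a median of 0.81. ctsl.1 (ENSDARG00000003902, chromosome 17, 27456804 to 27461321) had 5631 ± 215 in the Fe'i, 827 ± 34.1 in the Cavendish and 1507 ± 61.8 in the control library (ratio 2.77, counting SE 0.04). lgmn, legumain, had 1629 ± 68.7 in the Fe'i against 398 ± 17.4 in the Cavendish library, ctsbb 2640 ± 116 against 802 ± 44.9, ctsz 1055 ± 45.9 against 326 ± 14.9 and ctsh 709 ± 32.1 against 242 ± 11.8. ctsba, a relative of ctsbb chosen after its value was seen, had 125 ± 7.65 against 185 ± 9.23. The 15 genes summed to 12742 in the Fe'i and 3381 in the Cavendish library.

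The 41 other lysosomal genes held 8 calls, all higher, against 4.34% of all genes called higher. They had 38 positive ratios and a median of 0.68. man2b1, a mannosidase, had 98.5 ± 5.04 in the Fe'i against 26.4 ± 1.66 in the Cavendish library. tfeb, the factor that switches on lysosomal genes, had 22.2 ± 2.23 against 5.51 ± 0.827. naga and hexb, which trim sugars from glycolipids, had 163 ± 7.21 against 63.4 ± 3.7 and 459 ± 18.4 against 193 ± 8.23, and ctns, the cystine exporter, 28.3 ± 2.47 against 10.5 ± 1.2. atp6v1ab, a proton pump subunit, had 33.1 ± 1.99 against 13.6 ± 1.02. The 4 markers of lysosome-rich enterocytes are cubn, amn, lrp2b and dab2, the receptor genes described above, so their sum is not a separate readout. It was 386 in the Fe'i, 82.5 in the Cavendish and 141 in the control library. These cells sit in a posterior zone of the gut, so a difference in the stretch sampled and a difference in expression cannot be told apart.

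Iron and heme genes held some of the most raised members. The list of 24 genes held 5 higher calls and 1 lower one, against 4.34% and 4.61% of all genes, with a median of 0.11. slc11a2, which brings iron into cells, had 86.9 ± 4.11 in the Fe'i, 29.5 ± 1.93 in the Cavendish and 38.5 in the control library, and slc40a1, which exports it to the blood, had 113 ± 2.98, 31.4 ± 1.25 and 42.1. hmox1a (ENSDARG00000027529, chromosome 3, 26011482 to 26017831), heme oxygenase, had 66.8 ± 4.87, 9.18 ± 1.25 and 5.53 ± 1.03. hpx, the plasma carrier of free heme, had 1098 ± 46.6, 144 ± 6.79 and 79 ± 4.18, and cp, the plasma ferroxidase, 409 ± 20.9, 171 ± 9.63 and 115. All 5 were highest in the Fe'i library. steap4, a metalloreductase, was the call in the other direction, at 5.16 ± 0.624 against 18.1 ± 0.926 in the Cavendish library.

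hpx and cp are liver products and are also in the liver list, which was higher in the Fe'i library. The part of liver RNA in their levels was not tested. The ferritin gene fth1a and the transferrin receptor tfr1b, chosen after their values were seen, had ratios of -0.09 and -0.47. Of 9 erythroid genes none was called, with a median of 0.47, and hbaa1 had 227 ± 12.7 in the Fe'i against 133 ± 7.78 in the Cavendish library. Erythrocyte markers summed to 626 in the Fe'i, 411 in the Cavendish and 177 in the control library, and their part in the heme genes was not tested.

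**Figure D4:**
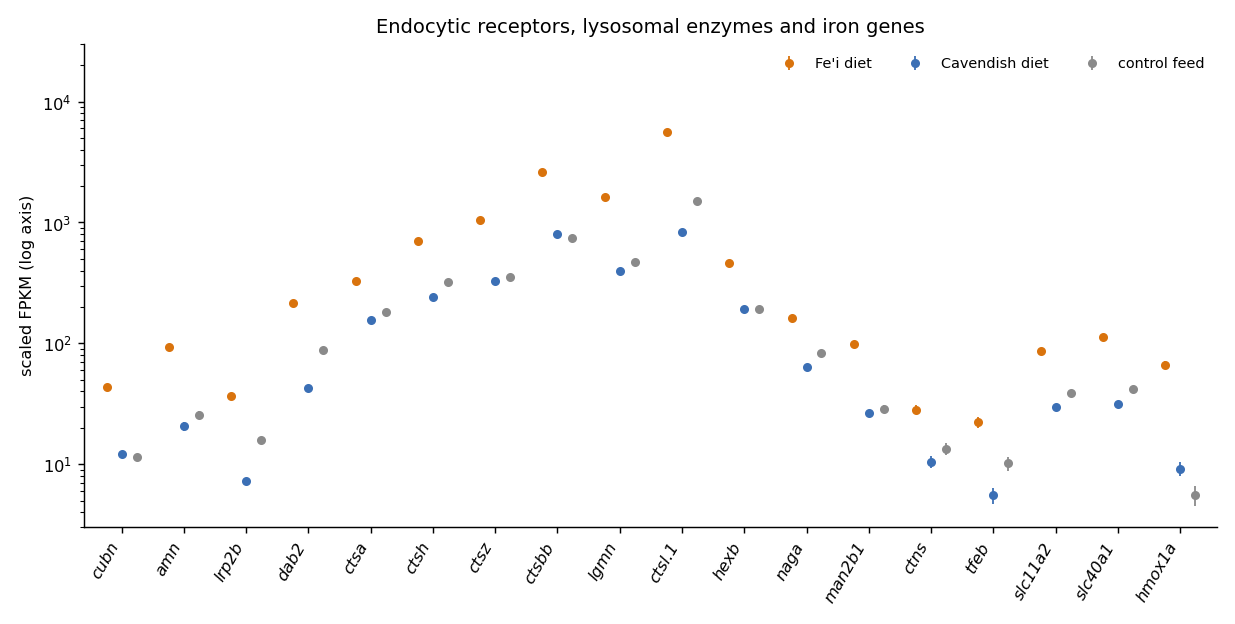
Scaled FPKM (log axis) with deposited 95% intervals in the Fe'i (orange), Cavendish (blue) and control (grey) libraries, for endocytic receptors (cubn to dab2), lysosomal genes (ctsa to tfeb) and iron genes (slc11a2 to hmox1a). The Fe'i library is the highest for all 18 genes.

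Several inflammatory genes and both dual oxidases were lower in the Fe'i library. Of the 35 genes of inflammation and epithelial oxidases, 28 reached 1 FPKM in both libraries, and these held 7 lower and 3 higher calls with a median of -0.12. The other 7, duox and duox2 among them, entered through the Cavendish library alone, so that the full list, with 12 lower and 3 higher calls and a median of -0.51, is a description. duox (ENSDARG00000062632, chromosome 25, 31958911 to 32018990) and duox2, neighbouring genes of oxidases that release hydrogen peroxide at the gut surface, had 0.87 ± 0.305 against 24.2 ± 1.49 and 0.176 ± 0.157 against 21.3 ± 1.39 in the Fe'i and Cavendish libraries. The control library had 0.922 and 0.548. The neutrophil-drawing chemokine cxcl8b.1 had 32.8 ± 4.51, 231 ± 9.5 and 38.5, the cytokine il13 4.21 ± 1.35, 29 ± 2.84 and 0.64, and the acute phase gene saa 9.88 ± 3.97, 49.8 ± 5.7 and 10.1. For these 5 genes the Cavendish library stood apart and the Fe'i and control libraries were close or, for il13, closer to each other.

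Of the 3 genes called higher, crp2, an acute phase protein, had 11.7 ± 2.75 in the Fe'i against 1.57 ± 1.06 in the Cavendish library, and cfb, a complement factor, 187 ± 7.6 against 69.7 ± 3.3. Both are plasma proteins of the kind the liver makes. The acute phase genes saa, crp6 and crp7 and the plasma protein gene hp of chromosome 7 were called lower. The part of liver RNA in these values was not tested. irg1l, chosen after its value was seen, had 14.8 ± 1.87 against 5.66 ± 0.842. nox1, an oxidase of another family and also chosen after its value was seen, had 19.9 ± 1.4 against 12.1 ± 0.868. The number called lower ran from 6 to 13 over the alternative settings.

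Immune cell genes went both ways. Of 16 neutrophil and granulocyte genes, 14 reached 1 FPKM in both libraries and held 1 lower and 2 higher calls, with a median of -0.37. The other lower calls, mmp9 and 1 of the genes named mmp13a, entered through the Cavendish library alone. The matrix proteases mmp9 and mmp13a, which cut collagen, were lower, mmp9 at 0.675 ± 0.364 in the Fe'i, 11.1 ± 1.01 in the Cavendish and 0.601 in the control library. mpx, a granule peroxidase of neutrophils, was higher at 56.4 ± 2.86, 21.8 ± 1.33 and 23.3, though 13 of the 16 ratios were negative. rnasel2, the other higher call, had 336 ± 11.5, 157 ± 6.3 and 7.84 ± 1.51, with the control library far below both bananas. The 3 neutrophil markers mpx, lyz and npsn summed to 81.6 in the Fe'i, 53.9 in the Cavendish and 42.3 in the control library. The 15 macrophage genes held 2 higher calls and 1 lower one, 11 negative ratios and a median of -0.23. The 2 macrophage markers mpeg1.1 and csf1ra summed to 28.1 in the Fe'i, 42 in the Cavendish and 38.3 in the control library. mfap4 had 179 ± 11.4, 17.2 ± 2.4 and 324 ± 16.8, so that the Cavendish library was low and the other two high, and grn1, a progranulin, had 1343 ± 55.8, 519 ± 22.9 and 1205. c1qa, a complement gene of macrophages, had 9.06 ± 1.68 in the Fe'i against 22.1 ± 2.12 in the Cavendish library. Of 17 lymphocyte genes cd28 and cd8a, both of T cells, were called lower, at under 5 FPKM in every library, and cd8a entered through the Cavendish library alone. The 15 genes at 1 FPKM in both libraries had a median of -0.26.

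Interferon response genes leaned higher, with 5 calls among 28 genes, all higher, against 4.34% of all genes called higher, and a median of 0.39. rsad2, an antiviral enzyme, had 42.2 ± 2.93 in the Fe'i, 8.72 ± 1.07 in the Cavendish and 16.5 in the control library. isg15, a ubiquitin-like modifier, had 91.7 ± 5.34, 27.4 ± 2.37 and 27.6. cmpk2, dhx58 and mxa were the other calls, at ratios of 1.42, 1.24 and 1.19, and the count ran from 2 to 6 over the alternatives. In antigen presentation mhc1uba was called higher, at 1950 ± 82.3 in the Fe'i against 821 ± 35.1 in the Cavendish library, and the class II gene mhc2dab lower, at 97 ± 4.78 against 292 ± 6.72, among 20 genes with a median of -0.27. Both genes belong to variable families whose copies differ between fish.

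Genes of protein folding in the endoplasmic reticulum leaned higher in the Fe'i library, with 27 positive ratios among 31 genes and a median of 0.53. The list held 8 calls, all higher, against 4.34% of all genes called higher. hspa5, the main chaperone of that compartment, had 301 ± 6.4 in the Fe'i, 101 ± 2.91 in the Cavendish and 210 in the control library. hyou1 had 53.9 ± 3.89, 21 ± 1.91 and 35.7, dnajc3a 67.8 ± 4.38, 27.7 ± 2.08 and 46.5, and hsp90b1 228 ± 5.08, 104 ± 2.71 and 193. In all 4 the Cavendish library was the lowest of the 3. xbp1, atf4a and ddit3, regulators of the response chosen after their values were seen, had ratios of 0.08, 0.22 and 0.09. The exocrine pancreas, a tissue rich in this compartment, was lower in the Fe'i library (18574 against 58381 summed), and its part in the chaperone levels was not tested. The count ran from 4 to 10 over the alternatives.

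Other stress lists held 1 to 3 calls each, to be read against the 8.94% called among all genes. Of 17 cytosolic heat shock genes hsp90aa1.2 and hspb1 were called lower, at 6.23 ± 0.944 against 17.5 ± 1.37 and 4.48 ± 1.44 against 12.6 ± 1.82 in the Fe'i and Cavendish libraries. Of 23 immediate early genes klf2b was called lower, at 4.76 ± 0.667 against 12.3 ± 0.923. Of 15 amino acid response genes cbsb was called higher, at a ratio of 1.01, and slc3a2b lower, at -1.04. Among 35 antioxidant genes gpx1b, a glutathione peroxidase, was lower at 687 ± 17.7 in the Fe'i, 2185 ± 25.4 in the Cavendish and 1056 in the control library. The glutathione transferases gstt1a and gstp2 were higher, gstp2 at 50.8 ± 4.79, 24.8 ± 2.69 and 0.33. The medians of the amino acid and antioxidant lists, -0.10 and -0.03, turned sign under some alternatives.

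Among 42 cytochrome P450 genes of families that handle foreign compounds and lipids there was 1 higher call and there were 3 lower ones. The 37 genes at 1 FPKM in both libraries held 1 higher and 2 lower calls. For the full list, the count is set against all genes. The full-list count is near the share of 8.94% called among all genes, and the full-list median of -0.06 turned sign under some alternatives. cyp2k22 had 200 ± 10.22 in the Fe'i, 16.1 ± 1.58 in the Cavendish and 66.1 ± 4.09 in the control library. Its relative cyp2k6 had 3.67 ± 0.812, 64.4 ± 3.55 and 5.51 ± 0.871, the opposite order. cyp2p9 had 7.09 ± 0.98, 26.4 ± 1.5 and 58.4. Conjugation and efflux, with 33 genes and a median of 0.07, held 2 higher and 3 lower calls. The 32 genes at 1 FPKM in both libraries held 2 higher and 2 lower calls. Among the calls were the sulfotransferase sult3st3 at 33.6 ± 3.38, 13.8 ± 1.77 and 89.3 and the glucuronosyltransferase ugt5a2 at 10.9 ± 1.28, 24.7 ± 1.77 and 61.2.

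**Figure D5:**
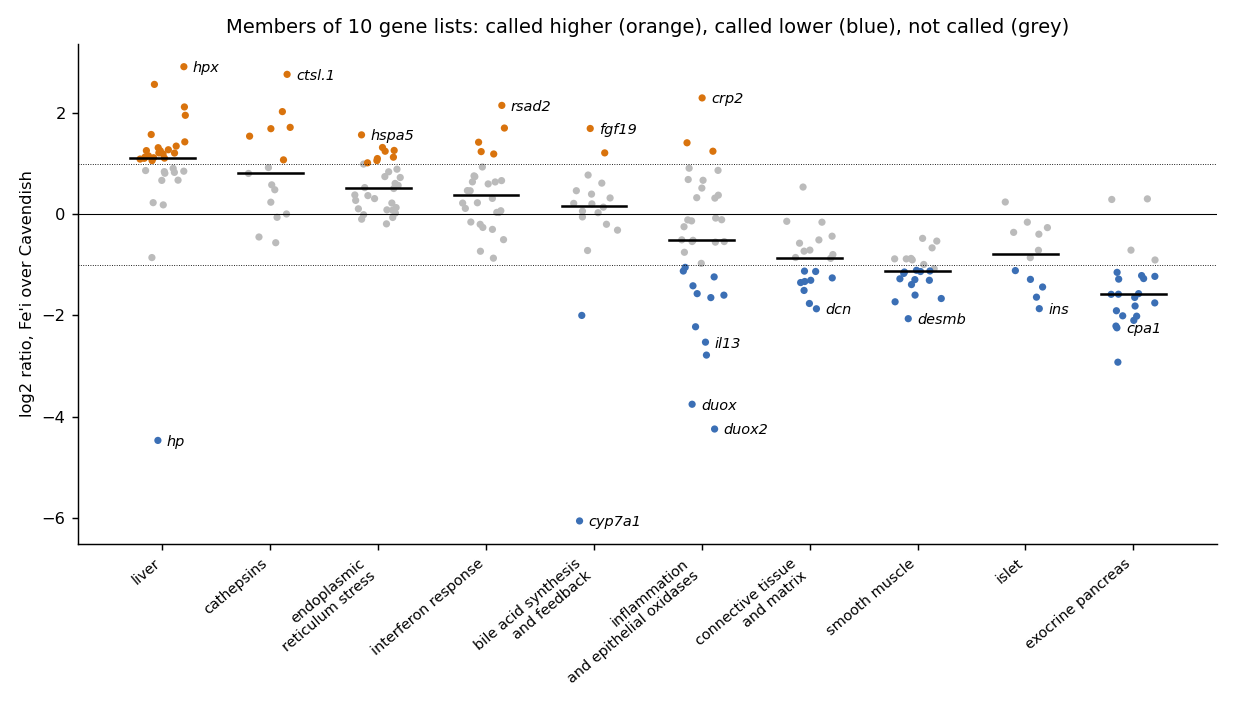
Each point is a gene of 1 of 10 lists, by its log2 ratio of Fe'i over Cavendish, orange where called higher, blue where called lower and grey where not called, with the list median as a black line. Liver genes sit around 1.12 with hp of chromosome 7 lowest at -4.47, and cyp7a1 at -6.06 is far from the other bile acid genes.

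Liver genes were higher in the Fe'i library as a group. Calls covered 22 of 33 genes, 21 of them higher, and the median was 1.12. fabp10a, the fatty acid binding protein of fish liver, had 7829 ± 113 in the Fe'i, 3423 ± 61 in the Cavendish and 1073 in the control library. The amino acid enzymes tat and pah had 85.1 ± 5.08, 18.8 ± 1.58 and 34.3, and 43 ± 2.41, 10.3 ± 0.944 and 7.07. The plasma protein ahsg2 had 207 ± 6.79, 34.1 ± 2.23 and 23.5. The gene called lower was hp of chromosome 7, which entered through the Cavendish library alone. The hp gene of chromosome 8 had 272 ± 14.2 in the Fe'i against 121 ± 7.67 in the Cavendish library. The liver list made up 2.23% of all FPKM in the Fe'i, 0.957% in the Cavendish and 0.588% in the control library.

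Pancreas genes went the other way. The 22 exocrine genes held 18 calls, all lower, with a median of -1.58, and the list held 5.29% of all FPKM in the Fe'i, 14.5% in the Cavendish and 6.19% in the control library. The trypsin gene prss1 had 8628 ± 62.6, 26953 ± 89.3 and 9155 ± 55.5, the carboxypeptidase cpa1 365 ± 18.2, 1732 ± 74.8 and 426, and the amylase amy2a 598 ± 24.5, 2769 ± 115 and 503. ptf1a, the transcription factor of acinar cells chosen after its value was seen, had 5.2 ± 1.65 in the Fe'i against 4.02 ± 1.15 in the Cavendish library. Of 12 islet genes 9 reached 1 FPKM in both libraries, and these held 5 calls, all lower, and a median of -1.11. ins, insulin, had 633 ± 38.3, 2307 ± 105 and 233 ± 17.6, the somatostatin gene sst1.1 84.5 ± 7.36, 265 ± 10.4 and 37.4, and the glucagon gene gcgb 50.8 ± 6.58, 139 ± 8.72 and 25.6. These 3 hormone genes kept the same order of libraries, with the Cavendish library highest and the control library lowest.

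Genes of the gut wall were lower in the Fe'i library as well. Of 22 smooth muscle genes 16 reached 1 FPKM in both libraries, and these held 11 calls, all lower, and a median of -1.15. The other genes entered through the Cavendish library alone. The full list, with 13 lower calls, 22 negative ratios and a median of -1.13, is therefore a description. desmb, a desmin, had 18.8 ± 3.04 in the Fe'i, 81.7 ± 4.8 in the Cavendish and 13.3 ± 2.24 in the control library, and the tropomyosin tpm2 28 ± 2.67, 95.2 ± 4.53 and 27.9. The smooth muscle actin acta2 had 210 ± 9.96, 521 ± 19.1 and 160. Of 20 matrix genes 17 reached 1 FPKM in both libraries, and these held 9 calls, all lower, and a median of -1.12, led by the proteoglycan dcn at 3.04 ± 0.684, 13.7 ± 1.25 and 2.62 and by sparc at 18.1 ± 2.17, 53.3 ± 4.12 and 18. With a pseudocount of 0.1 or 5 the smooth muscle calls ran from 17 to 7, and the matrix calls ran from 3 to 12 over all alternatives.

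Egg genes were present in the Fe'i library and near absent from the Cavendish library. Of 26 egg and germ cell genes 17 reached 1 FPKM in the Fe'i and 0 in the Cavendish library, so those 17 entered through the Fe'i library and their calls are a description. zp2.3, of the egg envelope, had 14.9 ± 1.96 in the Fe'i, 0.2 ± 0.179 in the Cavendish and 0.741 ± 0.371 in the control library, and zp3a.1 had 15.5 ± 1.98, 0.979 ± 0.392 and 1.81. Skeletal muscle genes showed the opposite order of the bananas. Of 25 genes 3 reached 1 FPKM in the Fe'i and 11 in the Cavendish library, with the myosin light chain mylpfa at 1.24 ± 0.56, 13.7 ± 1.53 and 6.18. The 4 ovary markers summed to 14.9 in the Fe'i, 1.08 in the Cavendish and 1.83 in the control library, and the 4 skeletal muscle markers to 2.74, 25.8 and 11.7. Their part in other results was not tested.

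In the absorptive epithelium 27 of 28 brush border enzymes and carriers reached 1 FPKM in both libraries. These held 2 higher calls, 1 lower call and a median of 0.22. The alkaline phosphatase alpi.2 had 177 ± 8.46 in the Fe'i, 58.5 ± 3.2 in the Cavendish and 153 in the control library, and the glutamate carrier slc1a1 32 ± 2.26, 13.4 ± 1.1 and 18.1. The cystine carrier slc7a9 was lower at 7.35 ± 1.14 in the Fe'i against 15.8 ± 1.3 in the Cavendish library, with its partner slc3a1 at 9.48 ± 0.867 against 19.2 ± 0.979, just inside 2-fold. The other lower call of the full list was ggt1a, a peptidase gene chosen after its value was seen. It entered through the Cavendish library alone, at 0.15 ± 0.182 against 4.08 ± 0.656. Of 5 goblet cell genes agr2, which folds mucins, was called lower at 163 ± 9.89 against 374 ± 17.8. Of 16 enteroendocrine genes the enkephalin gene penkb was higher at 19.8 ± 2.27 against 2.55 ± 0.659 and the hunger hormone ghrl at 51.6 ± 6.57 against 15 ± 2.8, while penka was lower at 14.7 ± 1.88 against 31.6 ± 2.19. The 2 enkephalin genes thus moved in opposite directions.

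In ion, acid and water transport 3 water channel genes were called lower among 23 genes with a median of -0.13, aqp8a.1 at 34.7 ± 3.51 in the Fe'i against 83.6 ± 4.37 in the Cavendish library, aqp3a at 1.68 ± 0.546 against 5.45 ± 0.795 and aqp1a.1 at 2.03 ± 0.695 against 6.07 ± 0.95. The sodium-proton exchanger slc9a3.2, chosen after its value was seen, entered through the Fe'i library alone. It was called higher at 2.55 ± 0.525 against 0.103 ± 0.0842. Of 17 metal genes with a median of 0.29 the zinc importer slc39a10 was higher at 12.6 ± 0.932 against 4.94 ± 0.462. The zinc importer slc39a4, which entered through the Cavendish library alone, was lower at 0.886 ± 0.418 against 4.48 ± 0.751. mt2, metallothionein, was within 2-fold at 1401 ± 34.3 against 893 ± 22.1. Of 37 replication and mitosis genes 1 was called, a ribonucleotide reductase gene rrm2 (ENSDARG00000020711), lower at 7.46 ± 1.33 against 19.5 ± 1.64. A second gene named rrm2 was not called and leaned the other way, at 15.4 ± 2.2 against 11.2 ± 1.48. Of 18 clock genes none was called, with a median of 0.08. All 13 mitochondrially encoded genes had positive ratios from 0.38 to 0.80 and none was called. They held 17.4% of all FPKM in the Fe'i, 10.9% in the Cavendish and 12% in the control library. Much of this was mt-atp8 alone, at 90817 ± 9158 scaled FPKM in the Fe'i and 60590 ± 6585 in the Cavendish library. The 13 genes summed to 170552 and 116546. The 39 nuclear genes of the respiratory chain had a median of 0.01 with none called.

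Genes called in 1 direction also lay next to each other on chromosomes. Among the compared genes, 35 runs of at least 3 adjacent genes within 100000 bases of each other were called the same way, 21 higher and 14 lower, holding 147 genes. The longest had 9 genes, all without a gene name, on chromosome 22 (25611415 to 25756668). The egg envelope genes zp2.2, zp2.3, zp2.6, zp2.1 and zp2.5, with 1 unnamed gene, formed a run of 6 on chromosome 20 (54290356 to 54316972), and 6 elastase genes labelled CELA1 formed a run of lower genes on chromosome 22 (7439186 to 7508894). Such runs of near-identical copies can share reads. Runs of unlike genes were also found, as with gck, NPC1L1 and 2 others on chromosome 8 (40476811 to 40590816), all lower. On chromosome 5 (32321313 to 32355289) dab2, hspb15 and c9 were all higher. How many runs the shares of calls alone would give was not computed, so the runs are a description.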

How the data were processed

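Poly(A) RNA of zebrafish intestine was sequenced with 1 library per diet, and groups follow the treatment labels. The submitters' processing notes name FastQC 0.11.5, TopHat2 2.1.0 and build GRCz11. Per the file headers the values are Cufflinks FPKM, deposited with a 95% interval and a status for each gene. The version, options and strand setting of Cufflinks were not stated. Each file has 32661 rows for 32519 identifiers. Rows of the 117 repeated identifiers were summed, and 9 rows per library without status OK were dropped.

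FPKM carry no read totals. Squared ratios of FPKM to interval SD gave effective fragments, which came out whole, within 0.05, for 44.4% of Fe'i, 44.3% of Cavendish and 44.6% of control genes under 20 fragments, so no count test was run. The relative depths rest on whole values within 0.01. PCR copies are not independent, so intervals may understate counting error.

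Libraries were divided by median-ratio factors, from genes that reached 1 FPKM in every library (0.965 for Fe'i, 0.969 for Cavendish and 1.06 for control). Ratios use a pseudocount of 1, and folds are these ratios on a linear scale. A call needs a log2 ratio of 1 in size, 1 FPKM in the higher library and separate intervals. With 1 library a side no p-value was computed. The call rule was run on simulated data with known differences planted in some genes and counting noise as the only noise. They held no spread between fish or dissections, so the run cannot show how often such spread yields a call. Python 3.11.15, numpy 2.4.6, pandas 2.3.3, scipy 1.17.1 and matplotlib 3.10.9 were used.

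There were 44 gene lists, and 1127 of 1170 listed symbols matched the files, 11 of them through other names. The genes compared and the lists were chosen with earlier results of these data known. Named genes are the 15 highest and 15 lowest ratios among named, called genes of 5 FPKM or more, up to 6 members of each list with the largest ratios at that level, all cholesterol synthesis enzymes and 16 fixed genes. One gene that the rule names is counted but not reported here. Any other gene was chosen after its values were seen, among them cd8a, cd28, cfb, mxa, mylipb, tpi1a, slc39a4, fabp10a, the zp2 and run members and the genes of the closing section. Alternatives were pseudocounts of 0.1 and 5, a minimum of 5 FPKM or none, unscaled FPKM, TPM with and without pancreatic and mitochondrial genes, scaling over 2 libraries, and calls without the interval rule.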

Additional observations from a re-analysis of the deposited data

How the results depend on the processing

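Against 594 genes called higher and 631 lower, of which 48.5% were higher, a pseudocount of 0.1 gave 1001 lower calls and a share of 43.8%, and a pseudocount of 5 gave 277 higher and 225 lower calls and a share of 55.2%. A minimum of 5 FPKM, which leaves 7682 genes, gave 388 lower calls and a share of 51.6%. TPM gave a share of 57.7%, and TPM without pancreatic and mitochondrial genes 52.6%. The other settings stayed within 1.5 times of both counts. Giving genes listed at 0 an upper bound of 3 fragments, an alternative chosen after seeing the data, left 590 higher and 606 lower. No called gene turned direction in any of the 10 settings. Of the 44 list medians 6 turned sign, for sugar transport and glycolysis, carotenoid and retinoid handling, amino acid response, antioxidant, cytochrome P450 and DNA replication genes, all near 0. Ratios of the 298 named genes stayed within their counting error in 1513 of 1788 recomputations and moved beyond it in 275; 0 reversed. Cause was not tested for any of these. No paired analysis was possible because each diet has 1 library, and leaving out a replicate was not possible for the same reason. The lower depth of the Fe'i library limits genes near 1 FPKM most.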

Other observations

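The families below were chosen after their values were seen, so their counts are descriptions. Chemokine genes, whose products steer immune cells, went both ways, with 6 higher and 9 lower calls among 40 genes. cxcl11.8 had 0.656 ± 0.587 scaled FPKM in the Fe'i, 23.2 ± 2.84 in the Cavendish and 0.389 in the control library, and ccl34b.4 had 14, 57.9 and 9.68. Others stood higher, with ccl39.2 at 132 ± 20.4, 14.3 ± 3.34 and 16.3, ccl36.1 at 116, 35.3 and 28 and ccl19a.2 at 37.4, 6.49 and 14.3. The abundant ccl19b, at 712, 505 and 725, was not called. These genes lie in arrays of similar copies, and the division of reads among them is uncertain.

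The interferon-induced ifit genes had 5 calls among 8 genes, all higher, with a median ratio of 1.27. ifit14 had 103 scaled FPKM in the Fe'i, 24.8 in the Cavendish and 52.3 in the control library, and ifit15 had 140, 45.6 and 120. Annexins, which bind membranes in the presence of calcium, had 5 calls among 11 genes, all lower, with a median of -0.97. anxa2a had 11.3, 38.4 and 17.9, and anxa1a 17.4, 38.9 and 14, while anxa4, at 530, 341 and 283, leaned the other way. Of 11 cerebellin-like genes 4 were called higher, led in level by cbln8 at 488, 164 and 110.

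Among 10 galectin genes only lgals9l6 and lgals9l4 were called, and the most abundant member, lgals2b, had 8305 in the Fe'i against 7977 in the Cavendish library. Of 4 C-reactive protein genes crp6 and crp7 were called lower and crp2 higher. Both intelectin genes named itln2, on chromosome 7, were called higher, at 178 ± 9.63 against 29.1 ± 2.75 and 107 ± 5.26 against 28.5 ± 2.18. Intelectins bind microbial sugars. The purine enzyme genes pnp5a and pnp5b were called in opposite directions, pnp5a at 16.9 ± 1.29 against 7.27 ± 0.673 and pnp5b at 0.544 ± 0.496 against 3.25 ± 0.841.

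sat1a.2, a polyamine acetyltransferase, had a ratio of -6.30 but was not called, since its levels of 127 in the Fe'i and 10108 in the Cavendish library carry half-widths of 4731 and 12046. In all, 187 genes passed 2-fold with overlapping intervals. Of the calls, 33 of the higher genes were listed at 0 in the Cavendish library and 50 of the lower genes at 0 in the Fe'i library.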
